A study of Mus musculus with 14 samples.

Results

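Adipokines and the proteins of the fat cell's lipid droplet were followed in intervertebral discs of diabetic mice as 10 genes chosen by symbol: the adipokines Adipoq, Lep and Retn, the droplet coat genes Plin1, Plin4 and Cidec, the lipases Lipe and Pnpla2, the triglyceride synthesis enzyme Dgat2 and the adrenergic receptor Adrb3. These are 10 of the 55487 genes in the deposited count table, and the rule that selects them reads gene names alone. RNA was sequenced from discs of 3 db/db mice, 3 db/+ mice, 4 STZ-HFD mice and 4 Con+Veh mice, with 1 library for each mouse and 5 caudal discs pooled in each. The db/db mice were 3-month-old males homozygous for the db mutation of the leptin receptor gene Lepr, and the db/+ mice were their heterozygous littermates, which also carry a copy of that mutation. The STZ-HFD mice were male C57BL/6 animals that entered the study at 12 weeks of age, ate a high-fat diet for 4 to 6 weeks, received a single dose of streptozotocin (STZ, a toxin of insulin-producing beta cells) at 100 mg/kg and stayed on the diet for a further 12 weeks. The Con+Veh mice, labelled wild type, were also male C57BL/6 animals that entered at 12 weeks of age. They ate standard chow and received citrate buffer. The db cohort and the STZ cohort therefore differ in genotype, age and handling, and each model was set against its own controls.

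Adipocytes store triglyceride in a large lipid droplet whose surface is covered by perilipins and by CIDEC, a protein that lets droplets fuse and grow. When catecholamines reach the beta-3 adrenergic receptor, perilipin 1 is phosphorylated and the lipases gain access to the stored fat, while DGAT2 carries out the last step of triglyceride synthesis. The same cells secrete adiponectin, leptin and, in rodents, resistin, and leptin reports the size of the fat stores to a receptor that is defective in db/db mice. A caudal disc has few adipocytes of its own and lies next to fat, muscle and bone marrow. In bulk RNA from pooled discs, a different number of cells of a type and a different amount of RNA per cell cannot be told apart.

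Each library held 16076908 to 58943169 counts, and levels are given as CPM, the count relative to the library total, scaled by TMM, a factor that sets the bulk of genes equal between libraries. STZ-HFD replicate 1 stood apart, with the fewest counts of the series but 42626 genes with at least 1 count, against 25194 to 29924 in the other 13 libraries. Its TMM factor was 1.58, against 0.693 to 0.818 in the other libraries of the STZ cohort. A larger factor lowers the scaled CPM, so the place of this library among the others depends on it. For the tested genes among the 10, log2 fold changes in the STZ model are therefore also given without STZ-HFD replicate 1. For all other genes they are given with that library only. Lepr had 4.86 to 7.67 CPM in db/db discs and 6.08 to 9.68 CPM in db/+ discs. The db mutation acts on the splicing of the long receptor form, so this gene total does not check the labels. Markers of the labelled tissue were present in every library, but the cohorts differed: 6 annulus fibrosus markers summed to 9876 to 19691 CPM in the db cohort and to 740 to 2928 CPM in the STZ cohort, and 6 cartilage markers to 4869 to 22799 and 590 to 3200 CPM. Of those 6 cartilage markers, 4 were called lower in STZ-HFD than in Con+Veh, against 1.31% of all genes tested. Nucleus pulposus markers, 7 genes, overlapped between the cohorts, at 130 to 646 CPM in the db cohort and 171 to 1297 CPM in the STZ cohort. Bone markers, 7 genes, summed to 600 to 1549 CPM in the db cohort and to 82.6 to 330 CPM in the STZ cohort. Skeletal muscle markers, 9 genes, summed to 2856 to 8494 CPM in the db cohort and to 8051 to 22329 CPM in the STZ cohort. Levels are therefore compared within a cohort.

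The promoters of the 4 genes that passed the test in a model, and of Lep, are shown because these are the genes the comparisons turn on. They were read from RefSeq on GRCm38.p6, the build of the counts, for 8 of the 10 genes, and each run of 300 bases covers 250 bases before the RefSeq start and 50 after it, written 5′ to 3′ on the strand of the gene. Capitals mark matches on either strand to TTNCNNAA, the core letters bound by C/EBP factors, which are regulators of fat cell genes.
Adipoq (chr16:23146286-23146585, plus strand): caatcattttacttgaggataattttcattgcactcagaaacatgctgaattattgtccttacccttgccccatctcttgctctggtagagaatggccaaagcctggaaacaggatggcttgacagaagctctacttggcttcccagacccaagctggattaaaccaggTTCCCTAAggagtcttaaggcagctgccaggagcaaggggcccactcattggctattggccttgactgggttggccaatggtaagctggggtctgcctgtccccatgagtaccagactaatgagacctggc
Lep (chr6:29059971-29060270, plus strand): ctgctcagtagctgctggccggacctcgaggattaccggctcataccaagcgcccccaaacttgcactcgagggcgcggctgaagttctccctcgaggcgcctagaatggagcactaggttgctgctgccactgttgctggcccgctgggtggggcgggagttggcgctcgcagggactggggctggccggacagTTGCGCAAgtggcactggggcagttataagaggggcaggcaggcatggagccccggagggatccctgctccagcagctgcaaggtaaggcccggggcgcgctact
Retn (chr8:3655520-3655819, plus strand): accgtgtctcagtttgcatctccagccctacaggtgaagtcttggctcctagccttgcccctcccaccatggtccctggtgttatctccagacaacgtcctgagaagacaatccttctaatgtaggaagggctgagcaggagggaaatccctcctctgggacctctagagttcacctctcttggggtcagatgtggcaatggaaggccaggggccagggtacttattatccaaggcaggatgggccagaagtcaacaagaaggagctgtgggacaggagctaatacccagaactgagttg
Plin1 (chr7:79732727-79733026, minus strand): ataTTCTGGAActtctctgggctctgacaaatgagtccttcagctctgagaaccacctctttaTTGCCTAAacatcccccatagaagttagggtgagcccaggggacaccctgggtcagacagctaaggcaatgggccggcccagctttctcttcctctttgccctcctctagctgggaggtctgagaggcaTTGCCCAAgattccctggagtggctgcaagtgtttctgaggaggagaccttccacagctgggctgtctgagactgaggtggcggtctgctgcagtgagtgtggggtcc
Plin4 (chr17:56109733-56110032, minus strand): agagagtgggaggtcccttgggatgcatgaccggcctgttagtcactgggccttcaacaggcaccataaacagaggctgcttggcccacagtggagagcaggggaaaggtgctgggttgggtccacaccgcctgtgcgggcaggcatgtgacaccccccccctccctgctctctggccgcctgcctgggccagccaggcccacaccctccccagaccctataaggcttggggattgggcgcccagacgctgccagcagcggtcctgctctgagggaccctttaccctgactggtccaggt
The Lep match, TTGCGCAA, reads the same on both strands and begins 55 bases before the start, and the single Adipoq match begins 81 bases before it. Plin1 held 3 matches, and Retn and Plin4 held none. In all, 4 of the 8 genes held this motif in a listed promoter, and 40.7% of 32851 mouse promoters of the same length did so. The CCAAT box (letters CCAAT) was found in 2 of the 8, Adipoq and Plin4, against 37.4% of all promoters, and the E-box CACGTG in Lipe alone, against 7.15%. The nuclear receptor half-site AGGTCA, the TATAAA box and the 13-letter element AGGNCANAGGNCA, whose form PPAR gamma binds, were in none of the 8, against 16.3%, 13.6% and 0.381% of all promoters. The counts are of genes and the shares are of single promoters, and Cidec and Lipe each had more than a single listed promoter. A gene count and a share are therefore not on the same scale. These shares are descriptions of letters in a short window, and the element AGGNCANAGGNCA can itself hold a half-site. Elements further from the start were not searched.

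In the annotation on GRCm38, Adipoq spans chr16:23146536-23158028, Retn chr8:3655770-3660110 and Lep chr6:29060220-29073877, all on the plus strand. On the minus strand lie Plin1 at chr7:79720218-79732903, Plin4 at chr17:56100591-56109803 and Cidec at chr6:113424634-113435760. Lipe, on the minus strand at chr7:25379527-25398710, Pnpla2, on the plus strand at chr7:141455198-141460743, and Dgat2, on the minus strand at chr7:99153658-99182719, share a chromosome with Plin1 but are not neighbours. Adrb3 lies at chr8:27225776-27250616 on the minus strand. All 10 are annotated as protein coding. The Plin1 promoter shown is counted from a RefSeq start 127 bases inside the annotated gene start, and that of Plin4 from a start 21 bases inside it.

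Expressed per kilobase of exon, the mean of the 4 group means was highest for Retn at 36.3 CPM per kb and for Pnpla2 at 25.3, followed by Plin4 at 17.2, Cidec at 15.0, Adipoq at 14.4 and Plin1 at 13.3. Dgat2 at 6.13 and Lipe at 4.59 CPM per kb came next, Lep stood at 0.638, and Adrb3 was the lowest at 0.0614. The group means of Plin4, Cidec, Adipoq and Plin1 ranged over 8.82 to 32.1, 7.56 to 19.2, 4.35 to 23.3 and 5.38 to 19.7 CPM per kb, so these 4 neighbours in the order do not separate. Pnpla2 varied least between groups, with group means of 22.8 to 30.0 CPM per kb, whereas those of Retn spanned 9.01 to 58.6. A gene was tested if its CPM was above 1 in at least 3 of the 14 libraries. That left 9 of the 10 genes among 16915 tested, since Adrb3 never exceeded 1 CPM before scaling. Lep exceeded 1 CPM in 9 libraries, of which 7 were from the db/db and STZ-HFD groups, and the remaining 8 tested genes did so in all 14.

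**Figure D1:**
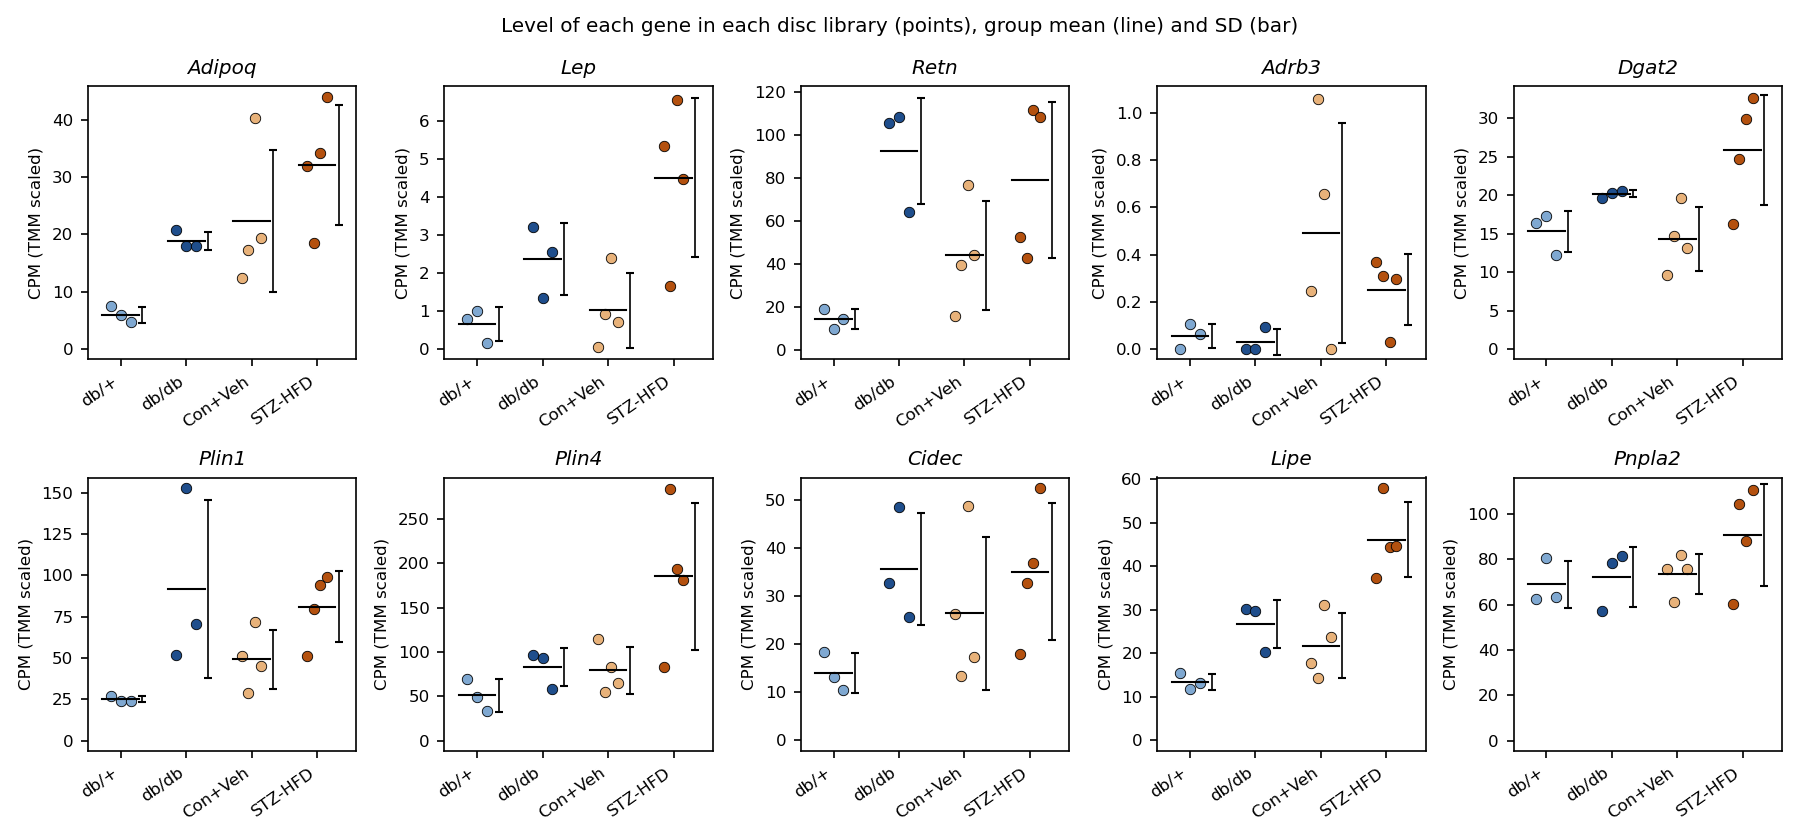
Level of each of the 10 genes in every disc library. The y axis is CPM scaled by TMM, on a linear axis of its own for each gene, the x axis is the group, points are libraries (3 db/+, 3 db/db, 4 Con+Veh, 4 STZ-HFD), the line is the group mean and the bar is the SD. The db/db points of Adipoq, Retn and Plin1 lie above all db/+ points, and 3 of the 4 STZ-HFD points of Plin4 lie above the Con+Veh points.

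In db/db discs, 3 of the 9 tested genes rose: resistin (Retn) 6.72-fold, perilipin 1 (Plin1) 3.31-fold and adiponectin (Adipoq) 3.18-fold. None fell. Calling required a change of 1 or more on the log2 scale together with an adjusted p below 0.05 in limma voomWithQualityWeights, with Benjamini-Hochberg adjustment over the 16915 genes. In this comparison 1.23% of all genes tested were called higher, 0.432% lower and 1.66% in either direction. The 9 log2 fold changes all lay above 0, from 0.05 to 2.75 with a median of 1.33, while the median of all genes was −0.04 and 47.3% of all genes lay above 0.

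Adiponectin is the most abundant hormone of fat cells and raises insulin sensitivity. Adipoq stood at 7.47, 5.88 and 4.66 CPM in the 3 db/+ libraries and at 20.7, 18.0 and 17.9 CPM in the 3 db/db libraries. The groups did not overlap, and the db/db libraries lay within 3 CPM of each other. For the contrast this gave a log2 fold change of 1.67 ± 0.37 (SE, n = 3 and 3), with an adjusted p of 0.0327 by limma with Benjamini-Hochberg adjustment. Without overlap in either direction were 25.8% of all genes in this comparison of 3 with 3 mice, and 14.1% had the db/db group on top.

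Resistin, named for insulin resistance, is made by fat cells in mice and had the largest log2 fold change of the 9 tested genes in db/db. Retn was at 19.0, 9.48 and 14.2 CPM in db/+ and at 105, 108 and 64.0 CPM in db/db. The lowest db/db library held over 3 times the CPM of the highest db/+ library. This amounted to a log2 fold change of 2.75 ± 0.42 (SE), with an adjusted p of 0.0115 by limma with Benjamini-Hochberg adjustment. The call was kept in 13 of the 14 fits that left out a library, and without db/+ replicate 2 the adjusted p was 0.0513.

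Leptin, the satiety hormone, was the least abundant of the 3 adipokines. Lep had 0.800, 1.01 and 0.155 CPM in db/+ (39, 58 and 10 counts) and 3.21, 1.35 and 2.55 CPM in db/db (204, 94 and 162 counts). Every db/db library was above every db/+ library, yet the spread was wide, and the log2 fold change of 2.07 ± 0.81 (SE) had an adjusted p of 0.156 by limma with Benjamini-Hochberg adjustment. Its 95% confidence interval ran from 0.37 to 3.77.

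Perilipin 1 is the coat protein that guards the droplet of fat cells against lipases. Plin1 was almost the same in the 3 db/+ libraries, at 26.96, 23.9 and 24.2 CPM, and stood at 51.5, 153 and 70.3 CPM in db/db. Replicate 2 of db/db was the high one, and all 3 were above the db/+ range. The fit gave a log2 fold change of 1.73 ± 0.35 (SE) with an adjusted p of 0.0239 by limma with Benjamini-Hochberg adjustment. Without db/db replicate 2 the log2 fold change was 1.26 and the adjusted p 0.0746.

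Cidec was at 18.4, 13.2 and 10.4 CPM in db/+ and at 32.8, 48.5 and 25.8 CPM in db/db, again without overlap. Its log2 fold change was 1.33 ± 0.43 (SE) and did not pass the test, with an adjusted p of 0.101 by limma with Benjamini-Hochberg adjustment. Plin4, a perilipin of fat and muscle, had 70.0, 49.5 and 33.3 CPM in db/+ against 96.8, 93.0 and 57.8 CPM in db/db. Here the groups overlapped, since db/db replicate 3 lay below db/+ replicate 1. The estimate was 0.69 on the log2 scale, with an adjusted p of 0.220 by limma with Benjamini-Hochberg adjustment.

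Of the lipase genes, one separated the db groups and the other did not. Lipe, which encodes hormone-sensitive lipase, was at 15.4, 11.8 and 13.3 CPM in db/+ and at 30.1, 29.6 and 20.3 CPM in db/db, without overlap. Its log2 fold change of 0.98 ± 0.25 (SE) lay just under the minimum of 1 and had an adjusted p of 0.0527, and 5 of 11 other ways of fitting called it. Pnpla2, which encodes adipose triglyceride lipase and acts before hormone-sensitive lipase, was at 62.6, 80.7 and 63.4 CPM in db/+ and at 57.1, 78.3 and 81.4 CPM in db/db. The ranges overlapped almost in full, and its log2 fold change of 0.05 had a 95% confidence interval of −0.41 to 0.52. Dgat2 had 16.4, 17.3 and 12.3 CPM in db/+ and 19.7, 20.3 and 20.5 CPM in db/db. These 3 db/db values were close together and all above the db/+ values, with a log2 fold change of 0.39 ± 0.24 (SE) and an adjusted p of 0.358 by limma with Benjamini-Hochberg adjustment.

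The db/db calls depended on the model of the spread. With edgeR's quasi-likelihood test, 0 of the 9 genes and 0 of all 16915 were called, and 6 of the 9 and 1891 of all genes had an unadjusted p under 0.05, against 7 of the 9 and 21.1% of all genes in limma. DESeq2 called 3 of the 9, and voom without quality weights called 0. In both, 6 of the 9 had an unadjusted p under 0.05, as did 2138 (DESeq2) and 2322 (voom) of all 16915 genes. Adipoq lost its call in 5 of the 14 fits that left out a library, and Plin1 in 4 of them, where the db/+ or db/db group was reduced to 2 mice.

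In STZ-HFD discs, 1 of the 9 tested genes rose, Plin4, by 2.47-fold, and none fell. Of all genes tested, 1.3% were called higher in this comparison, 1.31% lower and 2.61% in either direction, and 17.9% had an unadjusted p under 0.05, as did 5 of the 9. The 9 values of log2 fold change again lay above 0, from 0.27 to 1.95 with a median of 0.64, while the median of all genes was −0.04 and 47.2% of all genes lay above 0.

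Plin4 stood at 114, 54.2, 82.7 and 65.1 CPM in Con+Veh and at 82.6, 284, 193 and 181 CPM in STZ-HFD. Replicates 2, 3 and 4 of STZ-HFD were above every control, and replicate 1 lay inside the control range. The log2 fold change was 1.30 ± 0.27 (SE, n = 4 and 4), with an adjusted p of 0.0173 by limma with Benjamini-Hochberg adjustment. Without STZ-HFD replicate 1 it was 1.43, with an adjusted p of 0.0079. The call was lost in the fits without Con+Veh replicate 3, Con+Veh replicate 4, STZ-HFD replicate 3 or STZ-HFD replicate 4, with adjusted p of 0.0658 to 0.186, and also in edgeR's quasi-likelihood test and in voom without quality weights.

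The transcript estimates gave the same gene a further readout, since all 3 annotated Plin4 transcripts are in the deposited transcript table. Plin4-203 carried most of the estimated counts in the STZ cohort, 68.0% to 92.1% in Con+Veh and 70.0% to 87.2% in STZ-HFD, and those ranges overlapped. In db/+ its share was 90.5%, 77.9% and 33.5%, and in db/db it was 69.7%, 47.6% and 37.5%. Plin4-202 was listed at 0 in all 4 Con+Veh libraries, in 3 of 4 STZ-HFD libraries and in db/+ replicates 1 and 2, whereas the db/db libraries had 8.86%, 22.8% and 27.4% of their Plin4 estimated counts on it. The exception among the controls, db/+ replicate 3, had 14.6%. These are model-based splits of shared reads and were not tested.

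Skeletal muscle markers were above the controls in the same 3 STZ-HFD libraries as Plin4. Their summed level was 8051 to 10509 CPM in Con+Veh, 8875 CPM in STZ-HFD replicate 1 and 20131 to 22329 CPM in the other 3 STZ-HFD libraries. Of the 9 markers, 4 were called higher in STZ-HFD, among them the muscle actin Acta1, against 1.3% of all genes tested. After TMM scaling, the library with control-like Plin4 was also the library with control-like muscle markers. Its Plin1 and Dgat2 lay within the control range too. These positions depend on the TMM factor of that library, 1.58, against 0.693 to 0.818 in the rest of its cohort. Whether they reflect the tissue or the scaling was not tested. Among the other 3 STZ-HFD libraries, Plin4 was highest in replicate 2, at 284 CPM, and the muscle sum in replicate 3, at 22329 CPM. Across the db cohort the muscle sum was 4431 to 8494 CPM in db/+ and 2856 to 4897 CPM in db/db. The log2 fold changes of all 9 markers lay below 0 there. Of the 9, 1 (Myh1) was called lower, against 0.432% of all genes tested. The part of muscle RNA in the Plin4 values was not tested.

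**Figure D2:**
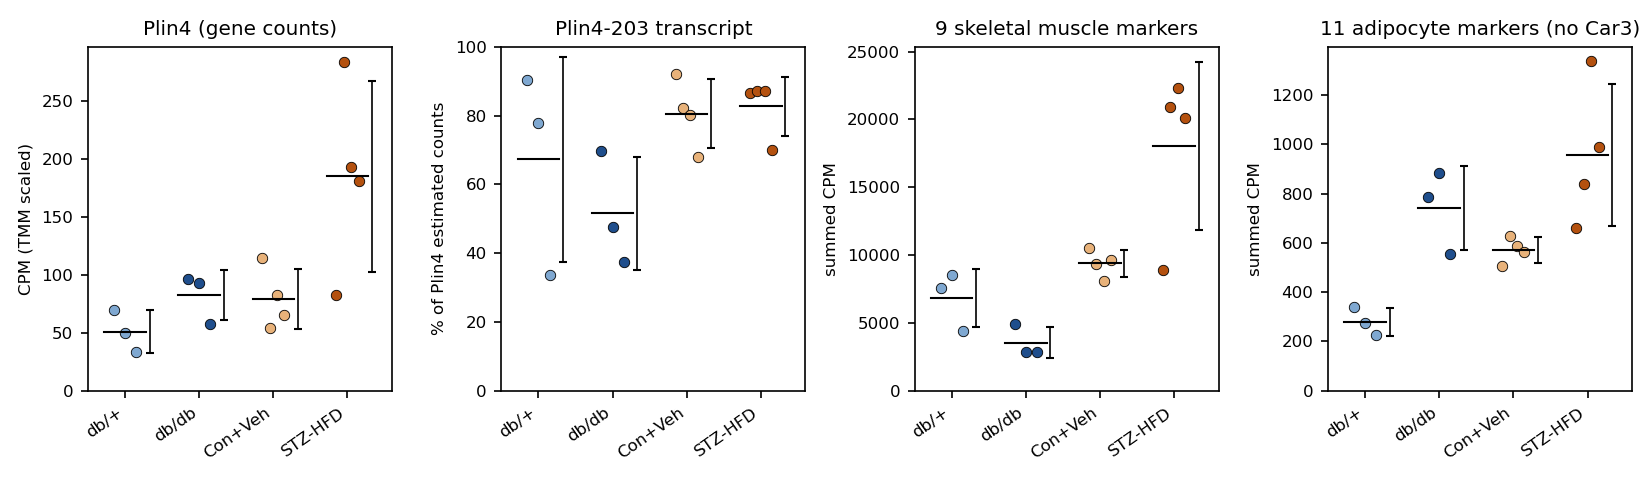
Plin4, its Plin4-203 transcript and marker sums in each library. The y axes are CPM scaled by TMM (gene counts), percent of Plin4 estimated counts, and CPM summed over 9 skeletal muscle and over 11 adipocyte markers. Points are libraries by group, lines are group means and bars are SD. STZ-HFD replicate 1, the first point of its group, is at 82.6 CPM for Plin4 and 8875 CPM for the muscle markers. Both lie within the Con+Veh range after scaling by a TMM factor of 1.58, the largest of the STZ cohort.

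Lipe showed the only separation between STZ-HFD and Con+Veh libraries among the 10 genes, with 17.8, 14.2, 31.1 and 23.8 CPM in Con+Veh and 37.3, 58.0, 44.4 and 44.7 CPM in STZ-HFD. All 4 STZ-HFD libraries were above all 4 controls, a pattern found in 4.74% of all genes tested in either direction and in 1.97% with STZ-HFD on top. The log2 fold change of 0.83 ± 0.22 (SE) had an adjusted p of 0.0454 by limma with Benjamini-Hochberg adjustment but stayed under the minimum of 1, so the gene was not called. Lipe was called by DESeq2, which gave a log2 fold change of 1.11, and when no minimum was set on the fold change. Without STZ-HFD replicate 1 the value was 0.86.

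Dgat2 had 9.62, 14.6, 19.7 and 13.2 CPM in Con+Veh and 16.3, 24.7, 29.8 and 32.6 CPM in STZ-HFD. Replicate 1 of STZ-HFD lay within the control range and the other 3 above it. The log2 fold change was 0.80 ± 0.22 (SE) with an adjusted p of 0.0522, and without that library 0.88 with an adjusted p of 0.0303, both by limma with Benjamini-Hochberg adjustment. Pnpla2 had 75.6, 61.1, 81.9 and 75.6 CPM in Con+Veh and 60.1, 104, 88.0 and 111 CPM in STZ-HFD. Here replicate 1 of STZ-HFD was just below the lowest control and the other 3 were above the highest. Its log2 fold change of 0.29 had a 95% confidence interval of −0.10 to 0.68.

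The adipokine genes overlapped between STZ-HFD and Con+Veh. Adipoq was at 12.4, 17.3, 40.4 and 19.4 CPM in Con+Veh and at 31.99, 18.5, 34.1 and 43.9 CPM in STZ-HFD, and Con+Veh replicate 3 exceeded 3 of the 4 STZ-HFD libraries. Its log2 fold change was 0.27 with a 95% confidence interval of −0.36 to 0.91. Retn had 15.4, 39.3, 76.6 and 43.8 CPM in Con+Veh and 52.4, 42.7, 112 and 108 CPM in STZ-HFD. Con+Veh replicate 3 was again the highest control, and the log2 fold change of 0.64 had a 95% confidence interval of −0.09 to 1.38. Lep had 2, 45, 51 and 13 counts in Con+Veh (0.0543, 0.935, 2.40 and 0.706 CPM) and 130, 48, 211 and 151 counts in STZ-HFD (5.34, 1.65, 6.55 and 4.49 CPM). Its log2 fold change was the largest in this comparison, 1.95 ± 0.68 (SE), with an adjusted p of 0.130 by limma with Benjamini-Hochberg adjustment, and 3 of 4 STZ-HFD libraries were above every control.

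Among the droplet coat genes, Plin1 had 51.1, 28.7, 71.8 and 44.8 CPM in Con+Veh and 51.0, 79.4, 94.1 and 99.0 CPM in STZ-HFD. The change was 0.64 on the log2 scale, with an adjusted p of 0.252 by limma with Benjamini-Hochberg adjustment. Cidec had 26.2, 13.3, 48.8 and 17.3 CPM in Con+Veh and 18.0, 32.7, 37.0 and 52.5 CPM in STZ-HFD. For this gene the log2 value was 0.35 with an adjusted p of 0.676 in the same test. Both genes overlapped between the groups, and for both Con+Veh replicate 3 was the highest control.

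Leaving out STZ-HFD replicate 1 moved the values of these genes little, to 0.27 for Adipoq, 1.97 for Lep, 0.74 for Retn, 0.73 for Plin1, 0.44 for Cidec and 0.34 for Pnpla2, none of them called. Con+Veh replicate 3 carried the highest quality weight of the fit, 3.05, against 0.275, 0.462 and 1.81 in the other 3 controls. The weighted control level of these genes is therefore drawn toward its value. Without that library the log2 fold changes in STZ-HFD were 0.94 for Adipoq, 1.25 for Retn, 1.16 for Cidec and 1.08 for Plin1, and none of them passed the test (adjusted p of 0.312 to 0.333, limma with Benjamini-Hochberg adjustment).

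Adrb3, the receptor through which catecholamines start lipolysis in mouse fat, was at the limit of detection. It had 0, 6 and 4 counts in db/+, 0, 0 and 6 in db/db, 9, 51, 14 and 0 in Con+Veh and 9, 9, 1 and 10 in STZ-HFD. A count of 0 allows up to 0.0429 to 0.163 CPM, scaled by TMM, in the 4 libraries concerned, by counting error only. The highest value, 1.06 CPM in Con+Veh replicate 2, was in a control, and the groups overlapped in both models. An antisense gene, Gm45470, overlaps Adrb3 exons on the opposite strand. Whether counting used the strand is not given in the sources used here, so reads of such partners cannot be told apart, which also holds for Plin4 with Hdgfl2 and for Lipe with 4732471J01Rik.

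**Figure D3:**
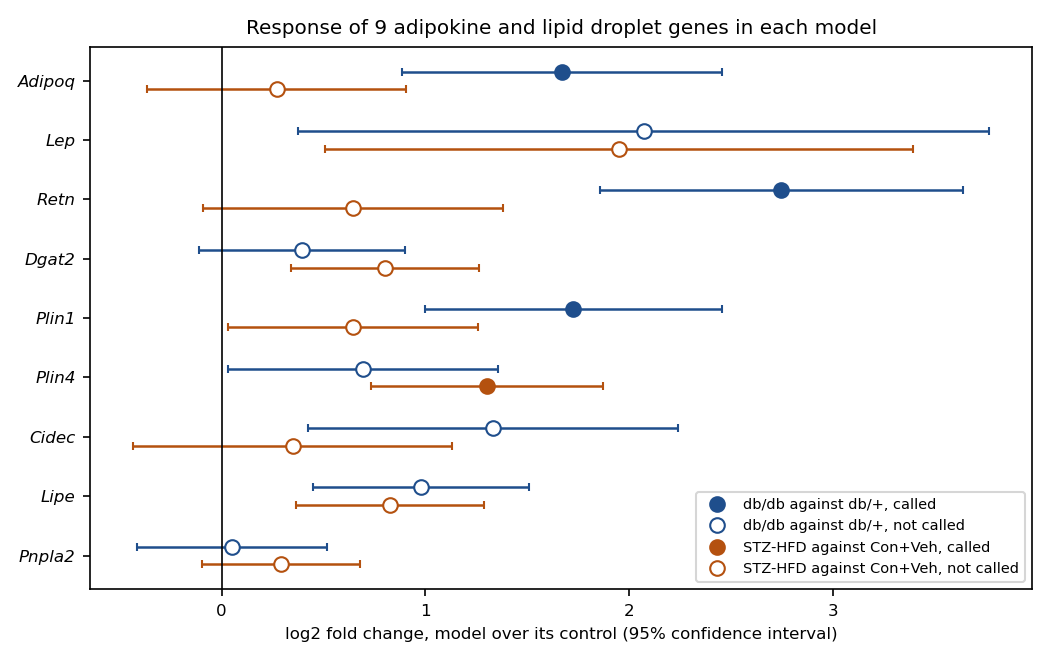
Log2 fold changes of the 9 tested genes. The x axis is the log2 fold change of each model over its own control from limma, with its 95% confidence interval. Blue is db/db against db/+ (3 and 3 mice), orange is STZ-HFD against Con+Veh (4 and 4 mice), filled symbols passed the test and the fold minimum. Filled symbols are Adipoq, Retn and Plin1 in db/db and Plin4 in STZ-HFD, and all 18 symbols lie above 0.

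The model, age and cohort cannot be told apart in this design. The responses were nevertheless compared as the difference of their contrasts, STZ-HFD over Con+Veh minus db/db over db/+. None of the 9 genes was called by limma voomWithQualityWeights, nor by edgeR's quasi-likelihood test or DESeq2, while 1.77% of all genes were called, 0.952% higher and 0.816% lower. At an unadjusted p under 0.05 stood 3 of the 9 in each of these fits. Of all 16915 genes, 17.3% did so in limma, 1991 in edgeR and 2204 in DESeq2. Those 3 were in limma Retn, with a difference of −2.10 ± 0.55 (SE, adjusted p = 0.0581), Adipoq with −1.40 ± 0.48 (adjusted p = 0.136) and Plin1 with −1.08 ± 0.45 (adjusted p = 0.222). For Plin4 the difference was 0.61, with a 95% confidence interval of −0.27 to 1.48, so its call in STZ-HFD and its missing call in db/db do not show unequal responses. For Lep the difference of −0.12 had an interval of −2.35 to 2.11, which leaves room for a several-fold larger response in either model.

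Retn was the 1 gene for which the difference passed in other fits. It was called with the replicate numbers as a block (adjusted p = 0.0246) and without Con+Veh replicate 1 (adjusted p = 0.0301), both limma with Benjamini-Hochberg adjustment. The replicate numbers do not pair the mice, and the block also raised the number of all genes called in each model. Over the 14 fits that left out a library, its difference ranged from −2.41 to −1.49.

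Adipocyte markers outside the 10 genes were measured beside these results. Of 12 such markers, 5 were called higher in db/db, the fatty acid carrier Fabp4 (log2 fold change 1.36), the amine oxidase Aoc3 (1.36), lipoprotein lipase Lpl (2.10), the fatty acid transporter Cd36 (2.16) and Pck1 (1.57), a step of glyceroneogenesis. In STZ-HFD 3 were called higher, Cd36 (1.12), Pck1 (1.82) and Slc2a4 (1.30), the insulin-regulated glucose transporter that muscle shares. Of all genes tested, 1.23% were called higher in db/db and 1.3% in STZ-HFD. None of the 12 was called lower. In db/db 9 of their log2 fold changes lay above 0 and 3 below, the lowest at −0.66, and in STZ-HFD all 12 lay above 0. The list is dominated by Car3, a carbonic anhydrase of fat and muscle that made up 47.2% to 93.3% of its summed CPM. Mean CPM of Car3, Slc2a4 and Sncg was lower in db/db than in db/+. With Car3 included, the sums overlapped in both models. They were 1463 to 1790 CPM in db/db against 856 to 4058 in db/+, and 4162 to 8025 CPM in STZ-HFD against 2393 to 5070 in Con+Veh. Without Car3 they were 554 to 885 CPM in db/db against 225 to 338 in db/+, and 659 to 1340 CPM in STZ-HFD against 506 to 628 in Con+Veh, so these sums were separated in both models. Taken singly, 8 of the 11 markers showed no overlap between the db groups and 3 showed none between STZ-HFD and Con+Veh. Among all genes tested, 25.8% showed no overlap between the db groups, 14.1% with db/db on top. Between the larger STZ-HFD and Con+Veh groups the shares were 4.74% and 1.97%, so the 2 counts of markers have unlike baselines.

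Of 5 brown adipocyte markers, 3 were tested and none was called in db/db, where the summed level was 11.6 to 21.7 CPM against 8.13 to 16.2 CPM in db/+. In STZ-HFD the sum was 61.5 to 152 CPM against 17.4 to 43.6 CPM in Con+Veh, without overlap. Nearly all of it was Cox8b, a respiratory chain subunit of brown fat and of heart and skeletal muscle, at 17.4 to 41.5 CPM in Con+Veh and 52.5 to 149 CPM in STZ-HFD. It was the marker called, with a log2 fold change of 1.82 (adjusted p = 0.0109, limma with Benjamini-Hochberg adjustment). Ucp1, which defines brown fat cells, was at 0 counts in 10 of 14 libraries and reached 1.23 CPM at most. The part of brown fat or muscle RNA in the values of the 10 genes was not tested.

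Dividing each gene by the summed adipocyte markers of the same library removes the scaling between libraries. Over all 12 markers, Retn and Adipoq separated db/db from db/+, with log2 ratios higher by 2.80 and 1.76, and no other gene did. Over the 11 markers without Car3, the log2 ratio of Retn was −4.85 to −3.99 in db/+ and −3.11 to −2.90 in db/db, a difference of 1.31 between means with no overlap. That of Adipoq overlapped between these groups, with a difference of 0.27, as did those of Plin1 (0.31), Cidec (−0.07) and Lep (0.75). Pnpla2 (−1.34), Dgat2 (−0.99), Plin4 (−0.68) and Lipe (−0.44) had lower ratios in every db/db library than in any db/+ library. Over all 12 markers, however, the differences of these 4 were above 0 and their groups overlapped. The 11-marker sum was itself higher in db/db, at 554 to 885 CPM against 225 to 338. A gene that rose less than this sum therefore gets a lower ratio. Lpl, the most abundant of the 11, had a mean of 340 CPM in db/db and 81.0 in db/+. In the STZ cohort the ratios of all 9 genes overlapped between groups with either denominator. The part of adipocyte number in the values of the 10 genes was not tested.

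**Figure D4:**
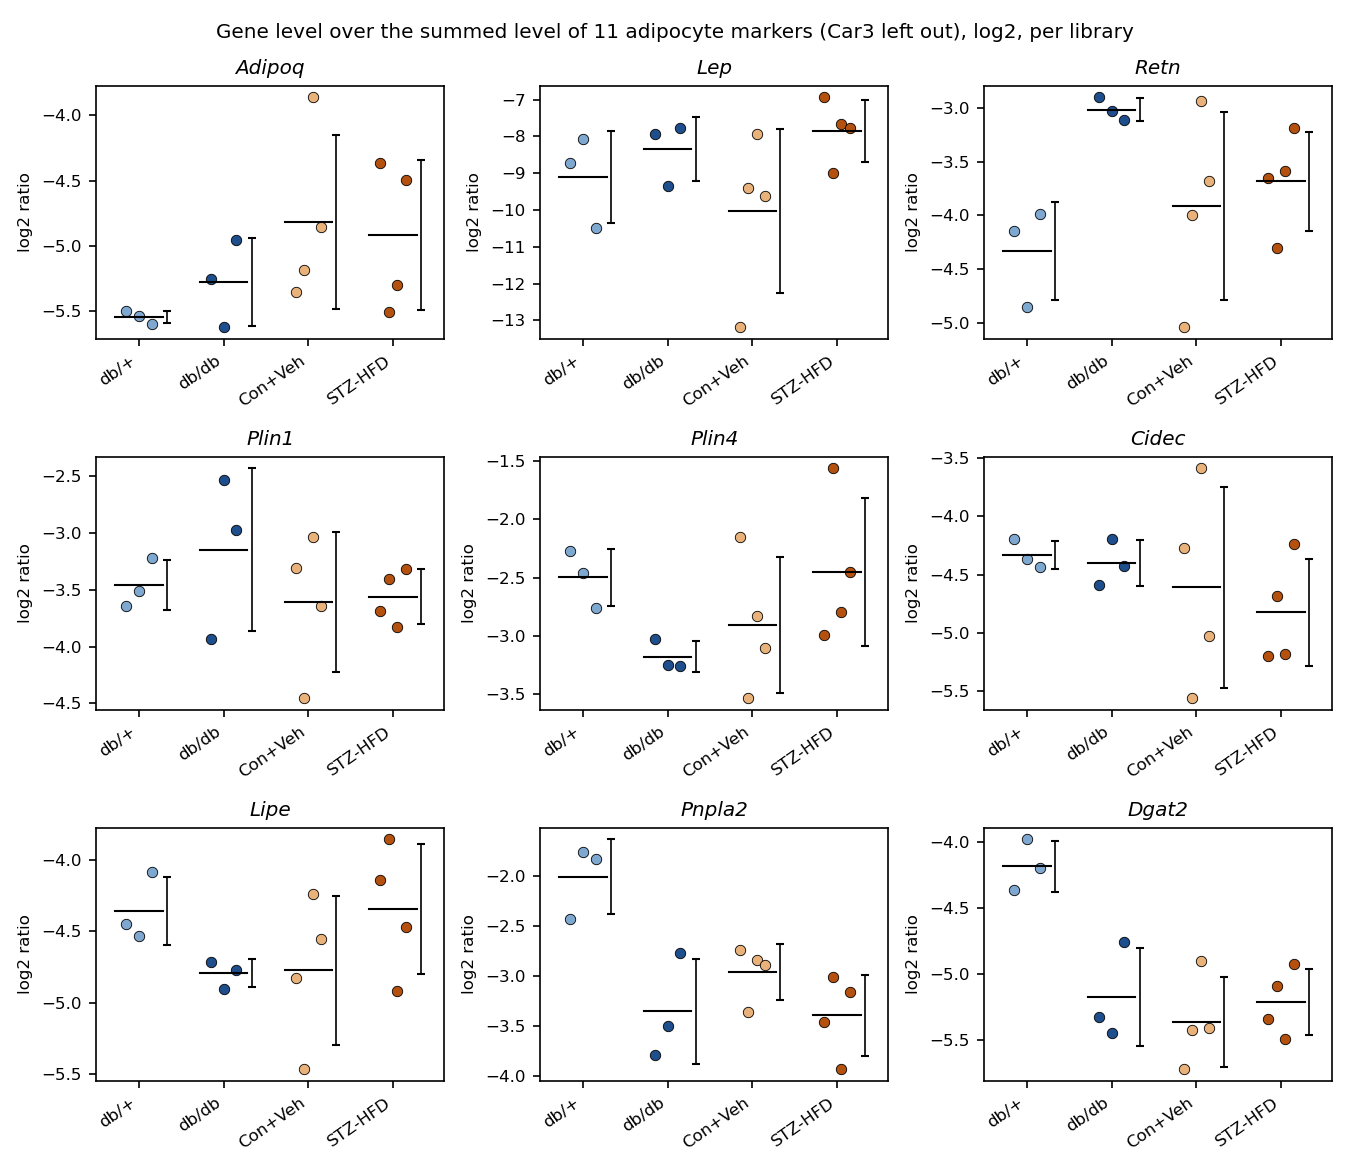
Each gene relative to adipocyte markers of the same library. The y axis is the log2 of the gene's CPM over the CPM summed over 11 adipocyte markers, Car3 left out, and the x axis is the group. Points are libraries, lines are means and bars are SD. Retn lies higher in all 3 db/db libraries than in db/+, Pnpla2, Dgat2, Plin4 and Lipe lie lower, and Adipoq, Plin1, Cidec and Lep overlap.

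The 10 genes were set in their pathway with 6 lists of related genes, 72 in all, of which 63 were tested. In db/db 3 of the 63 were called higher and 0 lower, with a median log2 fold change of 0.19. In STZ-HFD 3 were called higher and 1 lower, with a median of 0.21. The corresponding medians of all genes tested were −0.04 and −0.04, and the medians of the 9 genes described above were 1.33 and 0.64. Among all genes tested, 1.23% were called higher and 0.432% lower in db/db. The shares in STZ-HFD were 1.3% higher and 1.31% lower.

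Among 13 tested lipid droplet proteins, Plin2, the perilipin found on droplets of most cell types, rose in db/db with a log2 fold change of 1.01 (limma adjusted p = 0.0285), from 11.4 to 14.6 CPM in db/+ to 23.8 to 28.4 CPM in db/db. Its value of 0.28 in STZ-HFD was not called. Fitm2, which helps droplets bud from the endoplasmic reticulum, rose in STZ-HFD by 1.22 (adjusted p = 0.0425), with 7.14 to 16.0 CPM in Con+Veh and 16.4 to 33.5 CPM in STZ-HFD. The most abundant gene of that list, the caveolar coat gene Cavin1, was called in neither model (0.79 and 0.05). The difference between the models was not called for Plin2 or Fitm2.

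Among 9 tested genes of triglyceride synthesis, each model had a different acyltransferase of the first step called. Gpat3, the form of differentiated fat cells, rose in db/db with a log2 fold change of 1.63 (limma adjusted p = 0.0408), from 0.653 to 0.882 CPM to 1.89 to 2.63 CPM. Gpam, the mitochondrial form, rose in STZ-HFD by 1.46 (adjusted p = 0.0066), with 23.7 to 43.2 CPM in Con+Veh and 33.1 to 95.01 CPM in STZ-HFD. For Gpam the difference between the models was itself called, at 1.78 (adjusted p = 0.0297), and for Gpat3 it was not (−1.18, adjusted p = 0.238). Lpin1, the most abundant of this list, had −0.22 in db/db and 0.76 in STZ-HFD and was not called.

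Among 15 tested lipolysis genes, Prkar2b, a regulatory subunit of protein kinase A, rose in db/db by 1.58 (limma adjusted p = 0.0191), from 3.00 to 4.31 CPM to 10.3 to 12.0 CPM. In STZ-HFD the value was −0.08, and the difference between the models was called at −1.67 (adjusted p = 0.0492). Hcar1, the lactate receptor that restrains lipolysis in fat cells, rose in STZ-HFD by 2.50 (adjusted p = 0.0317), with 0.282 to 2.12 CPM in Con+Veh and 3.54 to 5.47 CPM in STZ-HFD. Mgll, which completes the breakdown of triglyceride and led this list in CPM, had 0.19 and −0.03.

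None of 13 other tested adipokines was called in either model. Cfd, which encodes adipsin, a classical product of mouse fat, and had the highest mean CPM of that list, had 110 to 290 CPM in db/+ and 92.4 to 190 in db/db, with a log2 fold change of −0.60, and 0.15 in STZ-HFD. Its sign in db/db was thus opposite to that of Retn and Adipoq, and the difference between these genes was not tested. For Lcn2, which is also a product of neutrophils and macrophages, the difference between the models was called at −3.47 (limma adjusted p = 0.0393), with 1.49 in db/db and −1.98 in STZ-HFD, neither called alone. Of 7 macrophage markers, 3 were called lower in STZ-HFD and none in db/db, against 1.31% and 0.432% of all genes tested. The part of macrophage RNA in the Lcn2 values was not tested.

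Of 7 adipokine receptor genes, Lepr was the one called, with a log2 fold change of −1.11 in STZ-HFD (adjusted p = 0.0107, limma with Benjamini-Hochberg adjustment). Cdh13, which encodes T-cadherin, a receptor of adiponectin, was the most abundant of them at 86.8 to 146 CPM in db/+ and 87.2 to 157 CPM in db/db. Its log2 fold changes were 0.03 and −0.18. None of 6 tested transcription factors of fat cells was called, and the most abundant, Srebf1, had −0.71 in db/db and −0.62 in STZ-HFD.

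**Figure D5:**
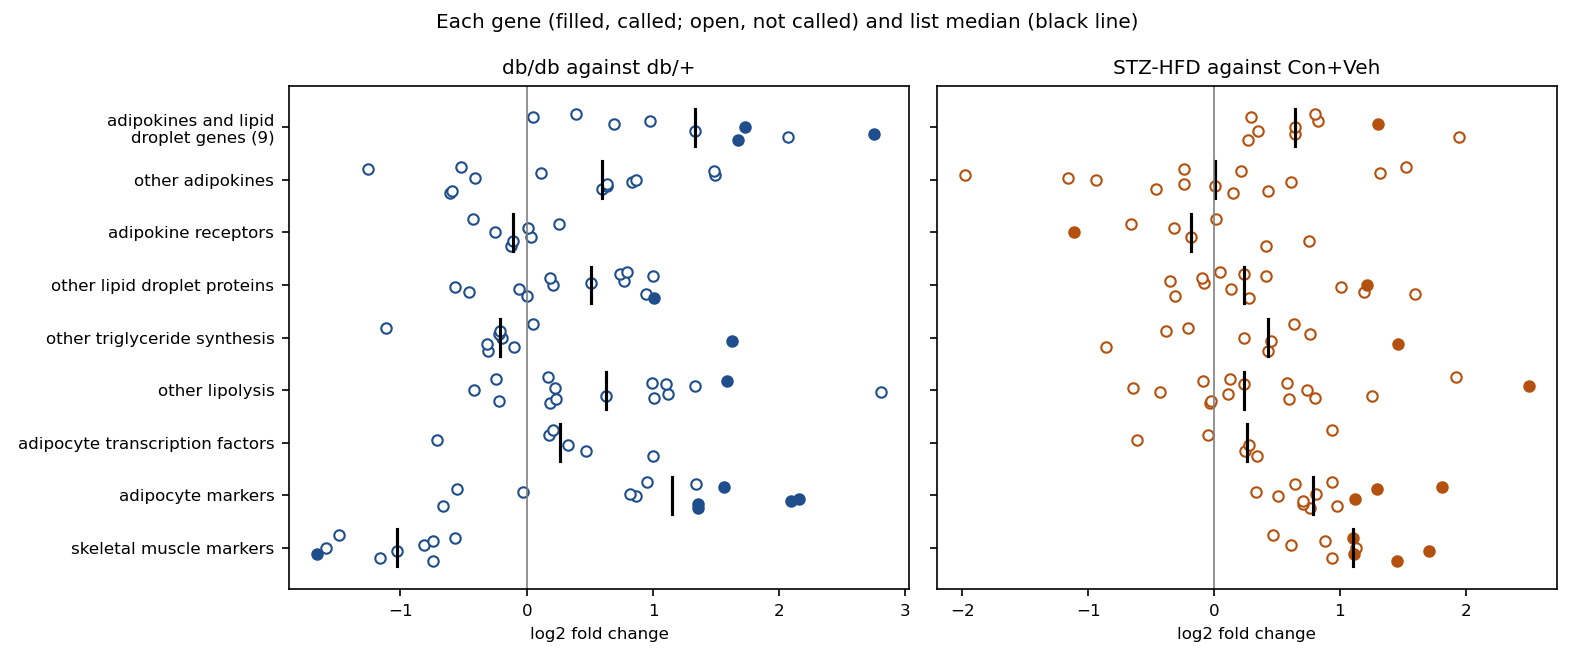
Log2 fold changes of the 9 tested genes and of related lists in each model. Each point is a gene (filled, called; open, not called), black lines are list medians, the x axis is the log2 fold change, left db/db against db/+ and right STZ-HFD against Con+Veh. The medians of the adipokine and lipid droplet genes are 1.33 and 0.64, and the skeletal muscle markers lie below 0 in db/db and above 0 in STZ-HFD.

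The protein-coding genes most like Adipoq across the 14 libraries, by Pearson's r of log2 CPM, were Serpina3c (0.947), Gpat3 (0.937), Abcd2 (0.926), Prxl2a (0.916) and Fabp4 (0.914). Retn ranked 24 among all genes tested with 0.855, then came Lipe with 0.796, and Pnpla2 had the lowest value of the other 8 genes at 0.375. The 14 points share the group structure, so the group means were then subtracted. After that the closest protein-coding genes were Maoa (0.903), Gm7324 (0.899), Trim10 (0.878), Crybg2 (0.875) and Slc7a13 (0.873). Retn (0.820) and Lep (0.817) stayed close to Adipoq among mice of the same group, while Plin1 (0.285), Pnpla2 (0.0476) and Plin4 (−0.096) did not. Within groups Plin1 was closest to Cidec, at 0.819. Over all 36 pairs of the 9 genes the median r was 0.677 across libraries and 0.478 after subtracting group means. These values describe 14 libraries that also share depth and tissue composition, and they carry no test.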

How the data were processed

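Discs of 14 mice were sequenced as total RNA after SeqPlex amplification of small inputs, all under a single batch label. The authors deposited raw gene counts made with STAR and featureCounts on GRCm38 and, in a separate table, estimated counts per transcript from Salmon, per the labels and the study's methods. Amplification and ribosomal RNA, at 28.1% to 60.2% of counts, reduce the depth left for other genes. The gene counts fill 55774 lines, and 287 repeated lines were used once. Gene lengths came from GENCODE M21, and estimated counts were rounded to whole numbers. Software was R 4.3.3, limma 3.58.1, edgeR 4.0.16 and DESeq2 1.42.0. A total of 16915 genes, those exceeding 1 CPM in 3 or more libraries, were fitted by limma voomWithQualityWeights, the transformation named in the study's methods, with TMM factors and 1 mean for each of the 4 groups, and adjusted by Benjamini-Hochberg within each contrast. Calling required a change of 1 or more on the log2 scale and an adjusted p below 0.05.

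The floor of 3 counts equals 0.0429 to 0.163 CPM, scaled by TMM, depending on the library, and it covers counting error alone. The genes, lists and tests were chosen with earlier results of these data known. Genes outside the 10 were named when a related list held them as called in a model, or as its most abundant gene, or among the 5 protein-coding genes most like Adipoq. Markers named beyond that rule (Aoc3, Cd36, Fabp4 as a marker, Lcn2, Lpl, Pck1, Slc2a4, Sncg, Myh1, Cox8b, Ucp1) were chosen after their values were seen. Other settings tried were DESeq2, the quasi-likelihood test of edgeR, voom without weights, RLE factors, filterByExpr, no filter, a replicate block, Salmon totals, removal of ribosomal RNA genes or of the GC trend over 20 bins, each model alone, no fold minimum, a prior count of 0.5, adipocyte markers without Car3, leaving out the 2 libraries whose names end in RIP, and leaving out each library. Transcripts were summed for genes with every annotated transcript in the table. Other transcript splits, protein sequences and the promoters of Dgat2 and Adrb3 were not analysed here. Same-numbered libraries are different mice.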

Additional observations from a re-analysis of the deposited data

Results flagged for a closer look

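Among 44 sets of values, the 10 genes and 12 summed marker lists in each of the 2 groups of 4 libraries, 3 held a library far from the others of its group, and chance alone gives this in about 1 in 20 groups. The summed skeletal muscle markers of STZ-HFD replicate 1, 8875 CPM, lay far below the other 3 STZ-HFD libraries. In this library Plin1, Plin4 and Dgat2 were within the Con+Veh range, while the other 3 were above it. Its TMM factor, 1.58, was the largest of the STZ cohort, and these positions depend on that factor. The summed neutrophil markers of the same library, 6.33 CPM, were far above the rest of its group. The summed keratinocyte markers of Con+Veh replicate 4, 13.3 CPM, were far below the other 3 Con+Veh libraries. Nearly all of this sum was Dsp, with a Con+Veh mean of 59.1 CPM against 62.9 CPM for the whole list. The sum therefore mostly follows that gene. No level of the 10 genes stood apart in this way. The part of these libraries in the results was not tested beyond leaving each out.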

How the results depend on the processing

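Of the 9 tested genes, 3 were called in db/db. That count was 0 with edgeR's quasi-likelihood test and with voom without quality weights, 0 of the 3 genes whose transcript totals were complete with Salmon estimates, and 5 with each model fitted alone. In STZ-HFD the count of 1 was 0 with edgeR's quasi-likelihood test, with voom without quality weights and without both libraries named RIP, and 2 with DESeq2 and with no minimum on the fold change. Leaving out each library gave 0 to 4 called genes in db/db, 0 to 1 in STZ-HFD and 0 to 1 for the difference of the models. For most of these settings the number of all genes called is not given here, so these counts lack a baseline. With each model alone, 3419 of 15332 genes had an unadjusted p under 0.05 in db/db. With DESeq2, 2343 of 16915 had one in STZ-HFD. In edgeR's test 6 (db/db) and 5 (STZ-HFD) of the 9 genes had an unadjusted p under 0.05. Of all 16915 genes, 1891 (db/db) and 2136 (STZ-HFD) did so in that test. The causes were not tested.

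Same-numbered libraries did not deviate together (mean r of −0.091 in the db cohort and −0.111 in the STZ cohort), so the numbers do not pair the mice. Blocking on the replicate number, 5 of the 9 genes were called in db/db, 1 in STZ-HFD and 1 (Retn) for the difference. Among all genes, 966 were called in db/db with the block, against 281 without it, and 599 against 441 in STZ-HFD.

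Signs turned for values near 0 that were not called. For Pnpla2 in db/db the log2 fold change was −0.0046 with the block, −0.022 without db/db replicate 2 and −0.046 without db/db replicate 3. For Adipoq in STZ-HFD it was −0.035 without STZ-HFD replicate 4, within a range of −0.035 to 0.94 over the left-out libraries. The difference between the models turned for Lep with edgeR (0.30), DESeq2 (0.31), voom without weights (0.81) and no filter (0.047), and for 5 left-out libraries (0.038, 0.079, 0.15, 0.70 and 1.05, within a range of −0.79 to 1.05). It turned for Lipe with edgeR (0.10), DESeq2 (0.11), voom without weights (0.19) and without Con+Veh replicate 3 (0.21, within a range of −0.34 to 0.21 over the left-out libraries), and for Pnpla2 after removal of the GC trend (−0.040). Depth limits Lep and Adrb3 most, with 2 to 211 and 0 to 51 counts in a library.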
